A study of Mus musculus with 2 samples.

Results

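The genes described here encode the activators, inhibitors and a ubiquitin-conjugating enzyme of the anaphase-promoting complex, with securin and separase, in mouse male germ cells. The 7 members were taken by symbol, namely Cdc20, Fzr1, Pttg1, Espl1, Fbxo43, Fbxo5 and Ube2c, out of 31053 genes counted in every library. Each symbol matched 1 gene. Single-cell RNA-seq with a kit for 3' transcript ends was done on germ cells of adult C57BL/6 testis. The tetraploid cells had been collected by flow cytometry per the labels' protocols, although the sample titles name the whole testis. Spermatids are haploid and would not be held by such a sort, yet the authors' table annotates 333, 619 and 393 WT cells as the 3 round spermatid stages and 111 as elongated spermatids, so the levels given for those stages come from cells that conflict with the stated sort. One library carried the genotype label Zfp541-/- and the other the label WT, with no other allele or agent named and no number of mice given. The product of Zfp541 is a zinc finger protein found in male germ cells.

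The anaphase-promoting complex, or APC/C, is a ubiquitin ligase that ends metaphase. CDC20 activates it at the transition to anaphase, and CDH1, the product of Fzr1, activates it later and in interphase. The active complex marks securin, the product of Pttg1, for destruction, which frees separase, the product of Espl1, to cleave cohesin. EMI1, encoded by Fbxo5, and EMI2, encoded by Fbxo43, inhibit the complex, and in mouse male meiosis EMI2 is required for spermatocytes to reach the first division. UBE2C places the first ubiquitins on APC/C substrates. Protein abundance and destruction are not visible in mRNA counts.

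The library labelled Zfp541-/- held 8833 annotated cells and 119675250 unique molecular identifiers (UMIs), against 8420 cells and 108612781 UMIs in the WT library. Each genotype had 1 library, so no difference below has a replicate check, no test was possible, and the 95% intervals cover counting error alone. Levels are UMIs per 1000000 UMIs (CPM), summed over the cells of a stage named by the authors. A gene is called higher or lower where the fold is at least 2 and the higher sum is at least 10 CPM. The library labelled Zfp541-/- had no cells annotated after diplotene and 13 in diplotene, and the WT library had 122 cells before pachytene, so the genotypes are compared in mid and late pachytene, and in early pachytene by cluster. Zfp541 itself was at 70.6 CPM in late pachytene of the library labelled Zfp541-/-, against 35.8 CPM in WT, so the count of the targeted gene was higher and not lower in that library; the sources used here do not say where the deletion lies relative to the counted 3' end. Cells of the library labelled Zfp541-/- were deeper, with a mean of 24097 UMIs per late pachytene cell against 9648 in WT. In mid and late pachytene and the first division, the summed level of each list of Sertoli, Leydig, peritubular myoid, endothelial, macrophage and red cell markers was at most 4.38 CPM in either library. Pachytene markers summed to 10705 CPM in late pachytene of the library labelled Zfp541-/- and 11079 CPM in WT, and markers of diplotene and the first division to 1478 CPM in the WT first division, against 441 CPM in WT late pachytene.

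The sequences upstream of 3 members are shown because genes of the mitotic divisions often carry 2 short promoter elements, and these members hold both. The elements searched, on both strands, were the CHR, with the letters TTTGAA, and the CCAAT box, with the letters CCAAT. Of 6 members with a RefSeq promoter entry, Cdc20, Espl1 and Ube2c held both in the 250 bases before the RefSeq start; Fbxo43 had no entry. Each line gives the 250 bases 5′ to 3′ on the gene's strand from RefSeq on GRCm38.p6, with CHR and CCAAT matches of either strand in capitals.
Cdc20, chr4:118437344-118437593, minus strand: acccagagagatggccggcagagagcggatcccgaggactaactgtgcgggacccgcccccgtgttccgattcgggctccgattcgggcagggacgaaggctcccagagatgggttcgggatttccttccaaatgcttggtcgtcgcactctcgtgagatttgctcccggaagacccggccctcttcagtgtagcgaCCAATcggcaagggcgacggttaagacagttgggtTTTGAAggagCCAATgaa
Espl1, chr15:102296043-102296292, plus strand: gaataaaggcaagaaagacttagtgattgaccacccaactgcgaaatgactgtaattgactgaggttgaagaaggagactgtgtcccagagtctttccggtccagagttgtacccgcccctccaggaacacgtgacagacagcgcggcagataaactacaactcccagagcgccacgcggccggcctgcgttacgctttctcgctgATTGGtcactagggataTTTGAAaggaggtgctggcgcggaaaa
Ube2c, chr2:164769679-164769928, plus strand: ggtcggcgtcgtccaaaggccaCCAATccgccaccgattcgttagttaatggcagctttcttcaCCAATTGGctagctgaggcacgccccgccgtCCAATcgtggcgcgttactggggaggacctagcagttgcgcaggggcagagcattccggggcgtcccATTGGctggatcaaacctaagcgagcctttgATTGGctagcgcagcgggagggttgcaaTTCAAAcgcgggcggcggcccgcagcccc
The CHR match lay 18 to 13 bases before the RefSeq start of Cdc20, 27 to 22 bases before that of Espl1 and 29 to 24 bases before that of Ube2c. Cdc20 had 2 CCAAT matches, Espl1 had 1 and Ube2c had 6, of which 1 pair overlapped on opposite strands. Over 32536 promoter windows of that length, 15.8% held a CHR match, 33.8% a CCAAT match, 5.52% both, and 10.1% at least 2 CCAAT matches. Fbxo5 held 3 CCAAT matches and no CHR match, and Fzr1 held 1 CCAAT match and no CHR match. The Pttg1 window held neither motif, but all 250 of its bases lie inside the GENCODE gene, as do 146 of those of Fzr1, 135 of those of Fbxo5, 31 of those of Ube2c, 27 of those of Espl1 and 9 of those of Cdc20. A match is a description of these letters and does not show binding.

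The 7 genes are protein-coding and lie on 6 chromosomes of GRCm38 in GENCODE vM21. Cdc20 (ENSMUSG00000006398) is at chr4:118432901-118437352 on the minus strand. Fzr1 (ENSMUSG00000020235) is at chr10:81366222-81378516 and Fbxo5 (ENSMUSG00000019773) at chr10:5799160-5805600, both on the minus strand. Pttg1 (ENSMUSG00000020415) is at chr11:43420250-43426251 on the minus strand. Espl1 (ENSMUSG00000058290) is at chr15:102296266-102324357 on the plus strand and Fbxo43 (ENSMUSG00000048230) at chr15:36150060-36164884 on the minus strand. Ube2c (ENSMUSG00000001403) is at chr2:164769898-164778822 on the plus strand. The 3' end of Ube2c shares 1662 bases with Tnnc2 on the opposite strand, and that of Cdc20 shares 53 bases with Elovl1; the sources used here do not say whether the authors' counting used strand, so these 2 levels are uncertain to that extent. The last 300 bases of 1 of 2 coding Ube2c transcripts match 414 other genes over at least 90 bases at 90% identity or more, whereas the other transcript, those of Pttg1, Fzr1, Espl1, Fbxo43 and Fbxo5 match none, and Cdc20 matches the pseudogene Gm7856.

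In WT cells the members peaked at different times between early pachytene and the round spermatids. Pttg1, Espl1, Fbxo43 and Ube2c, 4 of the 6 members that reach 10 CPM there, had their highest stage level in the first meiotic division. The share of all genes with their highest level in that stage was not computed. For Fbxo43 the margin was small, at 35.4 CPM in the first division and 31.6 CPM in diplotene. By CPM, Cdc20 was highest in early pachytene and Fzr1 in the first stage of round spermatids; per cell Cdc20 was highest in the first division, and with median-of-ratios scaling Fzr1 was highest in the second round spermatid stage. Over the step to the first division from late pachytene, 3 of 6 members were called higher, Fzr1, Espl1 and Ube2c, where 11.1% of 7138 genes tested were called higher and 25.7% lower, and no member was called lower. By CPM the median log2 ratio of the members was 0.81, against -0.33 over all genes tested. With median-of-ratios scaling the members' median was 1.31, with the same 3 members called. That scaling subtracts the same shift of -0.50 from the log2 ratio of every gene.

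**Figure D1:**
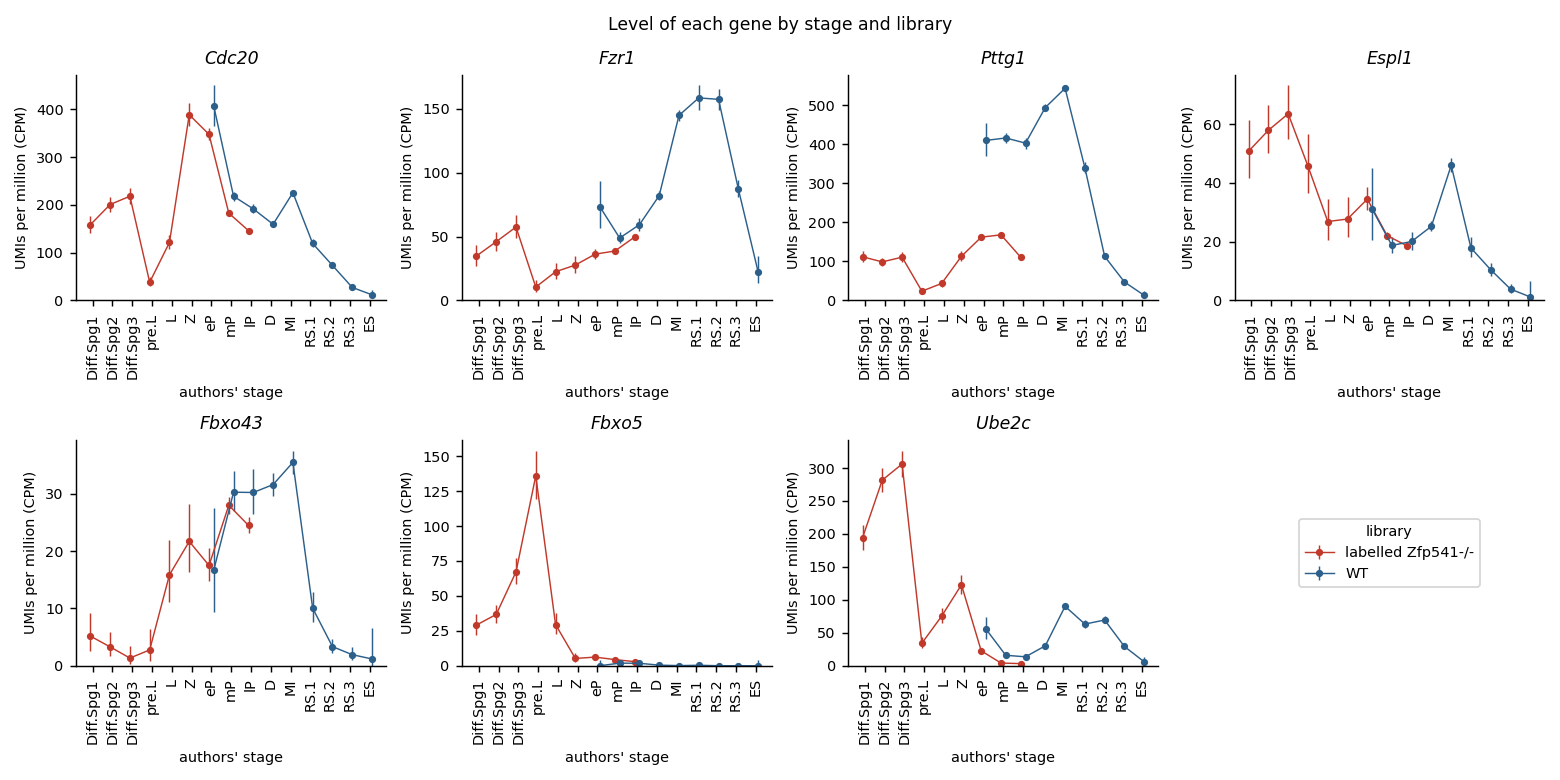
CPM of each gene by authors' stage (x axis) and library, with exact Poisson 95% intervals; stages with fewer than 50 cells of a library are left out, and the y axis differs between panels. Pttg1 was at 111 CPM in late pachytene of the library labelled Zfp541-/- and 403 CPM in WT, and Fbxo5 was highest in preleptotene of the library labelled Zfp541-/-, at 136 CPM.

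Cdc20, the activator of metaphase, was at 407 CPM in early pachytene, 218 CPM in mid pachytene, 192 CPM in late pachytene and 160 CPM in diplotene of WT. It was at 226 CPM in the first division, then at 119, 73.3 and 27.3 CPM in the 3 round spermatid stages and 11.8 CPM in elongated spermatids. By CPM the diplotene level was thus a low point between early pachytene and the division, but per cell it was not: Cdc20 had 1.59, 1.76, 1.85, 2.25 and 3.27 UMIs per cell in early, mid and late pachytene, diplotene and the first division. The first division was 1.41 times diplotene (log2 0.50, interval 0.45 to 0.55), which is under the fold for a call, and the first division and mid pachytene did not differ beyond counting error.

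Fzr1, the other activator, was at 73.4, 48.9 and 59.3 CPM in early, mid and late pachytene of WT and 82.1 CPM in diplotene. It was at 145 CPM in the first division, 159 and 157 CPM in the first 2 round spermatid stages, 87.3 CPM in the third and 22.4 CPM in elongated spermatids. The first division exceeded late pachytene by a log2 ratio of 1.29 (1.15 to 1.43). Unlike the other 5, Fzr1 was not lower in first-stage round spermatids than in the first division, with a log2 ratio of 0.13 (0.03 to 0.23), and the first 2 spermatid stages did not differ beyond counting error. Cdc20 and Fzr1, with levels in opposite order over that step, gave a log2 ratio of -0.92 (-1.03 to -0.81) for Cdc20.

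By CPM, Pttg1 was nearly level through WT pachytene, at 410, 417 and 403 CPM, and stood at 495 CPM in diplotene and 544 CPM in the first division. It was at 340, 113 and 47.3 CPM in the 3 round spermatid stages and 13.0 CPM in elongated spermatids. By CPM the 3 pachytene levels did not differ beyond counting error, and the first division was 1.35 times late pachytene. Per cell the course was not level, with 1.60, 3.35 and 3.89 Pttg1 UMIs per cell in early, mid and late pachytene. The second round spermatid stage was lower than the first by a log2 ratio of -1.59 (-1.70 to -1.49). Pttg1 and Fbxo43 were the 2 of 6 members called lower over that step, where 14.4% of 7206 genes tested were. Without the 5% of cells with the most UMIs only Pttg1 was called, and per cell Cdc20 and Espl1 were called as well.

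Espl1, which encodes the protease that securin holds inactive, was at 18.7, 20.1 and 25.2 CPM in mid pachytene, late pachytene and diplotene of WT, and at 46.0 CPM in the first division. The first division exceeded late pachytene by a log2 ratio of 1.19 (0.96 to 1.44). First-stage round spermatids were at 17.8 CPM, lower than the first division by a log2 ratio of -1.36 (-1.66 to -1.09). From early pachytene on, the Espl1 level was thus highest in the first division, with early pachytene next at 31.1 CPM. The log2 ratio of the first division over early pachytene had an interval of 0.02 to 1.16. Before pachytene, in the library labelled Zfp541-/-, Espl1 was at 50.8 to 63.5 CPM in the differentiated spermatogonia and 45.7 CPM in preleptotene.

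Fbxo43, the inhibitor needed at the meiotic divisions, was at 16.7 CPM in early pachytene, then at 30.2, 30.2, 31.6 and 35.4 CPM in mid pachytene, late pachytene, diplotene and the first division of WT. It was at 10.0 CPM in first-stage round spermatids and 3.33 CPM in the second stage. Espl1 and Fbxo43 were the 2 of 6 members called lower in first-stage round spermatids than in the first division, against 6.51% of 6898 genes tested. The log2 ratio of Fbxo43 over that step was -1.81 (-2.21 to -1.46).

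Fbxo5, the mitotic inhibitor, did not reach 10 CPM at any WT stage from early pachytene on. It had 18 UMIs in mid pachytene (1.85 CPM), 14 in late pachytene, 13 in diplotene and 3 in 2344 cells of the first division (0.0882 CPM, interval 0.0182 to 0.258). It had 0 UMIs in the last 2 round spermatid stages and in elongated spermatids. Of the 2 inhibitors, therefore, the Fbxo43 transcript was measured at the first division and the Fbxo5 transcript was near the limit of 3 counts.

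Ube2c was at 55.6 CPM in early, 15.8 CPM in mid and 13.5 CPM in late pachytene of WT. It was then at 30.2 CPM in diplotene and 90.2 CPM in the first division. It was the 1 member called higher in diplotene than in late pachytene (log2 1.15, interval 0.87 to 1.46), where 4.09% of 6914 genes tested were. That call was lost after thinning to 3000 UMIs, without the 5% of cells with the most UMIs and with clusters at equal weight. It was also the 1 member called higher in the first division than in diplotene (log2 1.58, interval 1.47 to 1.68), where 3.86% of 6552 genes tested were. Round spermatids were at 63.2, 69.4 and 29.2 CPM. In the third round spermatid stage Cdc20, Pttg1, Espl1 and Ube2c, 4 of the 5 members above the minimum, were called lower than in the second, where 26.8% of 7295 genes tested were. By CPM, all genes tested had a median log2 ratio of -0.54 over that step, against -1.25 for the members. With median-of-ratios scaling no member was called, with a median of -0.72. That scaling subtracts the same shift of -0.53 from the log2 ratio of every gene, so the members' median stayed below that of all genes. The share of all genes called on that scale was not computed. The elongating spermatid markers Prm1, Prm2, Tnp1, Tnp2 and Odf1 summed to 69067 CPM in the third stage and 938 CPM in the second; their part in the lower levels was not tested.

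**Figure D2:**
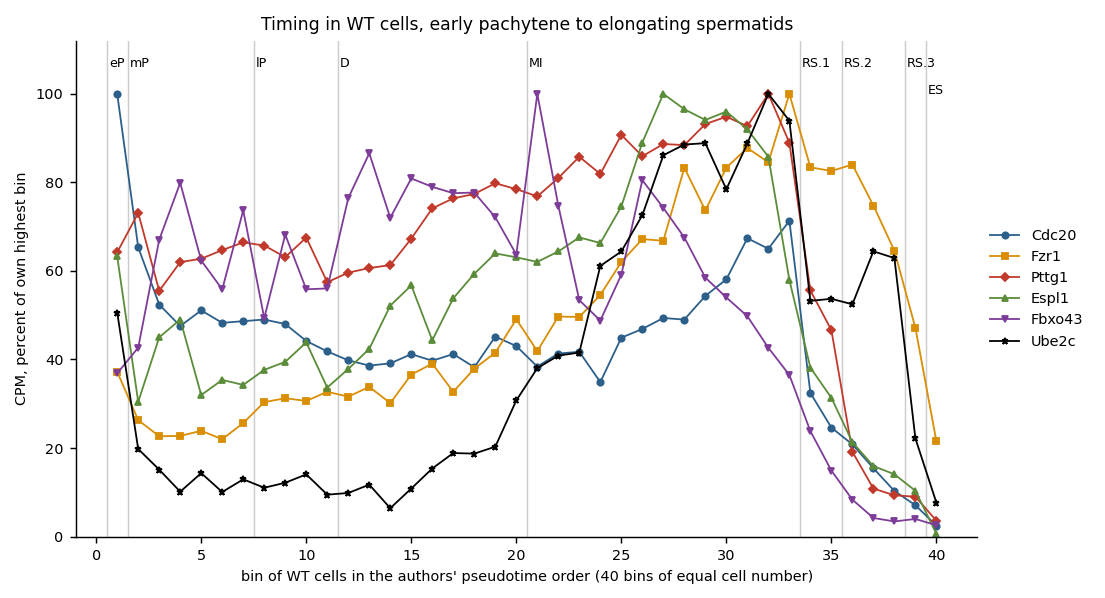
CPM of 6 members in 40 bins of equal cell number along the authors' pseudotime order of WT cells (x axis), as a percent of each gene's own highest bin (y axis); grey lines mark where the main stage changes, and Fbxo5 is left out because it stays under the minimum level. Fbxo43 is highest in bin 21, Espl1 in bin 27, Pttg1 and Ube2c in bin 32 and Fzr1 in bin 33.

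Ordered by the authors' pseudotime score, WT cells gave a finer sequence by CPM within the first division. Fbxo43 was highest in bin 21 of 40, the first bin whose largest stage was the first division, at 50.2 CPM. Espl1 was highest in bin 27 at 50.7 CPM, Pttg1 in bin 32 at 634 CPM, Ube2c in bin 32 at 117 CPM and Fzr1 in bin 33 at 199 CPM. Bins 32 and 33 are the last before the round spermatids. Cdc20, whose highest bin was the first, had its highest later level in bin 33 at 297 CPM (276 to 318), so by CPM the late peak of both activators fell in the same bin. In UMIs per cell, Pttg1 was highest in bin 25, Ube2c in bin 29, Cdc20 in bin 31 and Fzr1 in bin 35. Fbxo43 and Espl1 kept bins 21 and 27 per cell, so the order of Pttg1 and Espl1 depended on the scale. The shared bin of the activators also depended on it. The bins are consecutive cells of 1 library, and Fbxo43 and Espl1 had wide intervals, 42.5 to 58.9 CPM and 43.3 to 59.0 CPM at their highest bins.

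**Figure D3:**
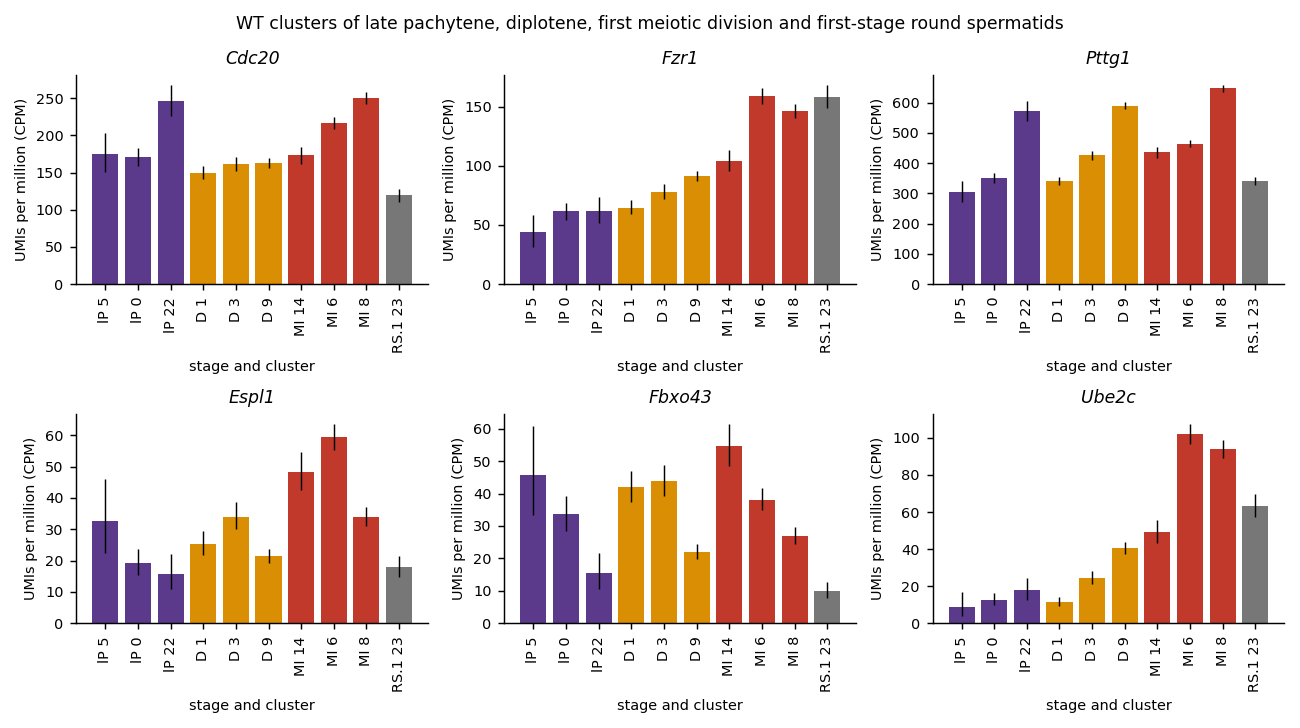
CPM of 6 members in WT clusters of late pachytene, diplotene, the first meiotic division and first-stage round spermatids, ordered within a stage by median pseudotime; bars start at 0 and error bars are exact Poisson 95% intervals. The last cluster of late pachytene, diplotene and the first division (22, 9 and 8) has the highest Pttg1 and the lowest Fbxo43 of its stage.

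The clusters of 1 stage differed among themselves. Diplotene held clusters 1, 3 and 9 in the order of median pseudotime, and the first division held clusters 14, 6 and 8. Ube2c was at 11.4, 24.6 and 40.6 CPM in clusters 1, 3 and 9, and at 49.1, 102 and 93.7 CPM in clusters 14, 6 and 8. Fzr1 followed the same order, at 64.6, 77.9 and 91.2 CPM in the diplotene clusters and 104, 159 and 147 CPM in those of the first division. Both genes therefore had a higher level in every first-division cluster than in any diplotene cluster.

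Pttg1 was at 340, 426 and 589 CPM in diplotene clusters 1, 3 and 9 and at 436, 463 and 647 CPM in first-division clusters 14, 6 and 8. Fbxo43 was at 41.9, 43.8 and 22.0 CPM in the diplotene clusters and at 54.7, 38.1 and 26.9 CPM in those of the first division. Securin was thus highest, and the inhibitor lowest, in the last cluster of either stage. Late pachytene had the same arrangement, with Pttg1 at 304, 349 and 572 CPM and Fbxo43 at 45.6, 33.6 and 15.4 CPM in clusters 5, 0 and 22. Espl1 was at 25.4, 34.1 and 21.4 CPM in clusters 1, 3 and 9 and at 48.3, 59.4 and 34.0 CPM in clusters 14, 6 and 8, so cluster 6 held its highest level. Cdc20 was between 150 and 163 CPM in the diplotene clusters and at 173, 217 and 250 CPM in clusters 14, 6 and 8. Median UMIs per cell were 10537, 11559 and 12829 in clusters 1, 3 and 9 and 12941, 14075 and 13569 in clusters 14, 6 and 8; what else sets the last clusters apart was not tested. The clusters were made from these genes among others, so these values describe them and support nothing further.

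Before pachytene the levels come from the library labelled Zfp541-/-. Ube2c, Cdc20, Pttg1 and Fzr1 were lower in preleptotene cells, the last cells before meiotic prophase, than in the latest differentiated spermatogonia, and 4 of the 6 members above the minimum were called lower, where 21.1% of 8755 genes tested were. Ube2c was at 34.1 CPM in preleptotene and 306 CPM in those spermatogonia, and Cdc20 at 38.0 CPM and 218 CPM. Fbxo5 was the 1 member called higher over that step, where 15.8% of genes tested were, at 136 CPM in preleptotene and 67.2 CPM in the spermatogonia (log2 1.02, interval 0.74 to 1.29). That call was lost after thinning to 3000 UMIs, without cells above 5% mitochondrial UMIs, without cells under 5000 UMIs, and per cell, where the log2 ratio was 0.46. Within that step the mitotic inhibitor was thus higher where the activators were lower.

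In leptotene of the same library Cdc20, Fzr1, Fbxo43 and Ube2c, 4 of 7 members, were called higher than in preleptotene, where 15.8% of 8384 genes tested were; Cdc20 and Ube2c remained called without cells under 5000 UMIs, and Cdc20 and Fbxo43 per cell. Fbxo5 was the 1 member called lower, where 14.0% were, at 29.5 CPM in leptotene against 136 CPM in preleptotene, and it was at 5.22 CPM in zygotene. Fbxo43 was between 1.34 and 5.17 CPM before leptotene, 15.8 CPM in leptotene and 21.7 CPM in zygotene. The 2 inhibitors therefore had opposite orders over the entry into prophase. By CPM, Cdc20 had its highest level of this library in zygotene, at 389 CPM. Per cell it had 1.44 UMIs in zygotene and 2.56, 3.57 and 3.52 UMIs in early, mid and late pachytene. In the WT library, 122 cells before pachytene held 15 Fbxo5 UMIs and 3 Fbxo43 UMIs, too few to give the order there.

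Between the libraries, Pttg1 and Ube2c were lower in mid and in late pachytene of the library labelled Zfp541-/-, and the other members above the minimum differed by less than 2-fold. The calls were 2 of 6 members lower in mid pachytene, where 10.6% of 7701 genes tested were, and 2 of 6 lower in late pachytene, where 14.3% of 7635 genes were. No member was called higher, where 15.0% of genes were in mid pachytene and 17.4% in late pachytene. The median log2 ratio of the members was -0.30 in mid and -0.35 in late pachytene, against 0.15 and 0.11 over all genes tested. Per cell rather than by CPM, the members' medians were 0.98 and 0.97, because the cells of the library labelled Zfp541-/- were deeper by log2 1.28 in mid and 1.32 in late pachytene.

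Pttg1 was at 168 CPM in mid and 111 CPM in late pachytene of the library labelled Zfp541-/-, against 417 and 403 CPM in WT. The log2 ratio was -1.31 (-1.36 to -1.25) in mid and -1.87 (-1.93 to -1.80) in late pachytene. It was negative in each of 9 pachytene clusters that both libraries share, between -1.63 and -0.93, and at least 2-fold in 8. In late pachytene it was -1.61, -1.63 and -1.44 in clusters 5, 0 and 22, each nearer to 0 than the stage as a whole, and with the clusters at equal weight it was -1.54. Cluster 22, where Pttg1 was highest, held 102 of 1945 late pachytene cells of the library labelled Zfp541-/- and 234 of 827 in WT. Per cell it was -0.03 in mid and -0.55 in late pachytene and was negative in 7 of the 9 clusters, so no 2-fold call holds on that scale. After each cell was thinned to 3000 UMIs, 26.5% of late pachytene cells of the library labelled Zfp541-/- (24.6% to 28.6%, exact Clopper-Pearson) and 69.0% of WT cells (65.7% to 72.1%) held a Pttg1 UMI; without thinning the shares were 82.6% and 97.0%, at median depths of 23690 and 9210 UMIs. In WT elongated spermatids, where Pttg1 was lowest, the share was 1.82% thinned and 5.41% unthinned at a median of 6480 UMIs.

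Markers of elongating spermatids (Prm1, Prm2, Tnp1, Tnp2 and Odf1) summed to 0.00154 UMIs per late pachytene cell in the library labelled Zfp541-/- and 2.07 in WT. These markers belong to cells later than pachytene, and the part of free RNA in the Pttg1 difference was not tested. In 122 WT cells before pachytene, those markers summed to 1.47 UMIs per cell while Pttg1 had 0.287 (0.200 to 0.399). In WT late pachytene Pttg1 had 3.89 UMIs per cell. Cells before pachytene of the library labelled Zfp541-/- also held Pttg1, at 88.0 CPM, so these values cannot measure free RNA. Within the library labelled Zfp541-/-, late pachytene was lower than mid pachytene for Pttg1 by a log2 ratio of -0.60 (-0.66 to -0.55), against -0.05 (-0.11 to 0.02) in WT. The 13 cells annotated as diplotene in the library labelled Zfp541-/- held 27 Pttg1 UMIs, or 70.4 CPM (46.4 to 102), against 495 CPM in WT diplotene.

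Ube2c was at 4.08 CPM in mid and 3.2 CPM in late pachytene of the library labelled Zfp541-/-, against 15.8 and 13.5 CPM in WT. The log2 ratio was -1.96 (-2.27 to -1.64) in mid and -2.08 (-2.45 to -1.71) in late pachytene, and it was negative in 9 of 9 clusters by CPM and per cell. Thinned to 3000 UMIs, 0.874% of late pachytene cells of the library labelled Zfp541-/- and 4.36% of WT cells (3.07% to 5.99%) held a Ube2c UMI, against 2.73% (0.566% to 7.76%) of WT elongated spermatids. Without thinning the shares were 7.15%, 11.9% and 4.50%. The WT late pachytene share lay inside the interval of the elongated spermatids, which is wide, from a stage of 111 cells with 5 Ube2c UMIs. That comparison cannot tell whether the WT share is background. Whether the difference between the libraries is one of expression was not tested. In the WT first division the thinned share was 23.8% (22.1% to 25.5%), above that interval.

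**Figure D4:**
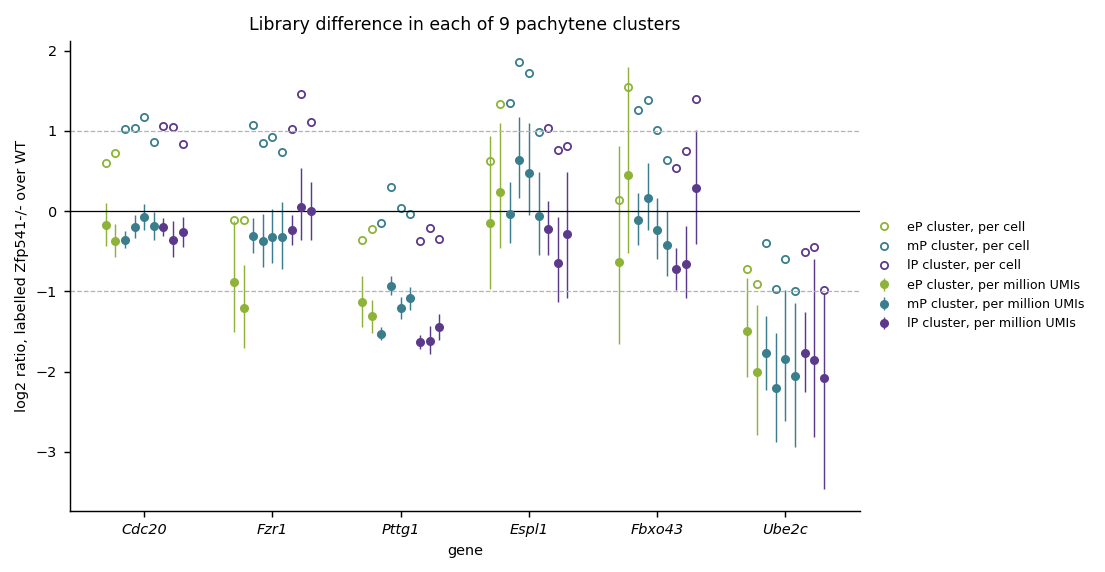
Log2 ratio of the library labelled Zfp541-/- over WT (y axis) for 6 members in each of 9 pachytene clusters, ordered early to late; filled points are ratios of CPM with 95% counting intervals and open points are per cell, and dashed lines mark 2-fold. Pttg1 and Ube2c lie below 0 in 9 of 9 clusters by CPM; per cell, Cdc20, Espl1 and Fbxo43 lie above 0 in all 9.

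Cdc20 was at 183 CPM in mid and 146 CPM in late pachytene of the library labelled Zfp541-/-, against 218 and 192 CPM in WT. Its log2 ratio was -0.26 and -0.39, negative in 9 of 9 clusters by CPM, and positive in 9 of 9 per cell. Fzr1 was at 49.7 CPM in late pachytene of the library labelled Zfp541-/- and 59.3 CPM in WT, a log2 ratio of -0.26 (-0.40 to -0.11) that turned to 1.06 per cell. For both activators the direction thus depended on the scale.

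Espl1 was at 18.6 CPM in late pachytene of the library labelled Zfp541-/- and 20.1 CPM in WT, with an interval of the log2 ratio, -0.35 to 0.14, that holds 0, and the ratio was 1.21 per cell. Fbxo43 was at 24.5 CPM and 30.2 CPM in those libraries, a log2 ratio of -0.31 (-0.51 to -0.10), and 1.01 per cell. Fbxo5 was at 6.17, 4.39 and 2.94 CPM in early, mid and late pachytene of the library labelled Zfp541-/-. In WT it had 0 UMIs in early pachytene and was at 1.85 and 1.75 CPM in mid and late pachytene, from 18 and 14 UMIs. All these levels were under the minimum, so Fbxo5 could not be called. By CPM it was higher in the library labelled Zfp541-/- in 9 of 9 pachytene clusters, with the interval above 0 in 3. In the early pachytene clusters 12 and 16, the library labelled Zfp541-/- had Fzr1 at 39.0 and 32.6 CPM, against 70.4 and 74.9 CPM in WT, where it rested on 66 UMIs in all. Elongating spermatid markers summed to 764 CPM in WT early pachytene and 0.699 CPM in that of the library labelled Zfp541-/-, and the part of free RNA in the Fzr1 difference was not tested.

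The other genes of the pathway came from lists chosen with earlier results of these data known. A list of 15 genes held the core subunits and the E2 that extends ubiquitin chains, all above 10 CPM in 1 library at least. In late pachytene of the library labelled Zfp541-/-, 2 were called higher and 1 lower, and their median log2 ratio was 0.05. With median-of-ratios scaling 3 were called higher and 0 lower. Anapc5, a scaffold subunit, was at 154 CPM in the library labelled Zfp541-/- and 19.4 CPM in WT. Cdc16, a subunit with tetratricopeptide repeats, was at 15.4 and 6.02 CPM. Ube2s, the chain-extending enzyme that acts after UBE2C, was at 1261 CPM in the library labelled Zfp541-/- and 2665 CPM in WT. Anapc4, another scaffold subunit, was at 34.4 and 17.9 CPM and was not called. Per cell, none of the 15 was below 0, where cells of the library labelled Zfp541-/- were deeper by log2 1.32.

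Of 8 effectors of the spindle checkpoint, the signal that holds CDC20 inactive, 0 were called in late pachytene; the 4 with the widest ratios were Mad2l1 (log2 -0.95), Bub1b (0.90), Mad2l1bp (-0.64) and Bub3 (-0.55). Of 16 APC/C substrates, 11 reached 10 CPM in late pachytene, 3 were called higher and 1 lower. Sgo1, the protector of centromeric cohesion, was at 82.4 CPM in the library labelled Zfp541-/- and 4.14 CPM in WT. Ccna2, or cyclin A2, was at 12.4 CPM in the library labelled Zfp541-/- and had 1 UMI in WT. Cenpf, a kinetochore protein, was at 337 and 155 CPM, and Birc5, or survivin, at 92.9 and 259 CPM. Over all genes tested 17.4% were called higher and 14.3% lower. Of 5 SCF partners of the EMI proteins and of their destruction, 4 reached the minimum and 0 were called; Rbx1 was at 279 CPM in the library labelled Zfp541-/- and 545 CPM in WT (log2 -0.97), and the log2 ratios of Cul1, Btrc and Skp1a were 0.45, 0.42 and 0.22.

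**Figure D5:**
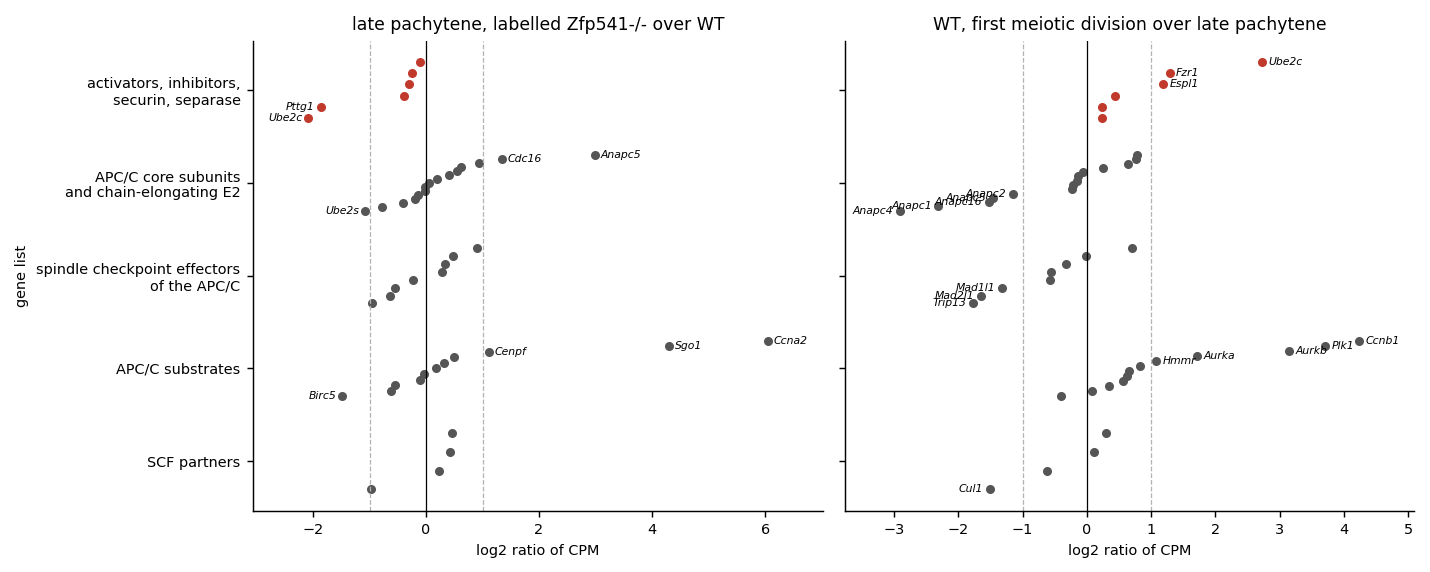
Log2 ratio of CPM for each gene of at least 10 CPM, by list (rows), in late pachytene for the library labelled Zfp541-/- over WT (left) and in WT for the first meiotic division over late pachytene (right); dashed lines mark 2-fold, and genes past them are named. In the left panel 2 members are past the 2-fold line and both are lower; in the right panel 3 are past it and all are higher.

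Over the step to the first division from late pachytene in WT, 5 of 12 substrates above the minimum were called higher and 0 lower, against 3 of 6 members higher and 0 lower. Ccnb1, or cyclin B1, was at 136 CPM in the first division and 7.14 CPM in late pachytene (log2 4.24). The log2 ratios of the kinases Plk1, Aurkb and Aurka were 3.70, 3.14 and 1.71. Of the core subunits and the chain-extending E2, 14 genes reached the minimum. Of these 14, 5 were called lower and 0 higher, where 25.7% of all genes tested were called lower. Their median log2 ratio was -0.18, against -0.33 over all genes. With median-of-ratios scaling 3 were called higher and 3 lower and the median was 0.32, so the sign of the list's median depends on the scale. That scaling moves every gene alike, so the list's median stayed above that of all genes. Anapc4 (log2 -2.91), Anapc1 (-2.31) and Anapc16 (-1.53) were called lower on both scales, and Anapc5 (-1.46) was not called after the rescaling. Of 8 checkpoint effectors, 3 were called lower and 0 higher: Trip13 (-1.77), Mad2l1 (-1.65) and Mad1l1 (-1.32), with Mad2l1bp at 0.70; after the rescaling Mad2l1bp was called higher and Mad1l1 was not called. Cul1, the cullin of SCF ligases, was called lower (-1.51), and the log2 ratios of Rbx1, Btrc and Skp1a were -0.62, 0.29 and 0.11. On the median-of-ratios scale the log2 ratios of this step are all higher by 0.50, and 9 of the 12 substrates were called higher. The share of all genes called on that scale was not computed.

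The genes whose WT pattern was most like each member's were sought among 10933 genes, by Pearson correlation of log2(CPM + 1) over 19 clusters with at least 50 WT cells; these points come from 1 library and neighbouring stages, so the values only describe it. The 3 most alike were Eif4a3 (r = 0.99), Alg8 and Dpf2 for Cdc20, Slc25a33 (0.98), Lin37 and Ncbp2 for Fzr1, and Snupn (0.98), Nxt1 and Gps1 for Pttg1. They were Mttp (0.98), Ate1 and Wrn for Espl1, Xpot (0.98), Golga1 and Phf21a for Fbxo43, and Ccnb1 (0.95), C1qbp and Mir124-2hg for Ube2c; Fbxo5 was under the minimum level, and its 3 were Spidr (0.91), Ndst2 and Tcf24. Among the members, Cdc20 was nearest to Pttg1 (0.92) and far from Fzr1 (0.22), and Fzr1 was nearest to Ube2c (0.88). The 2 inhibitors were at 0.49, and Ube2c and Fbxo43 at -0.0027.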

How the data were processed

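The data were 10x Chromium 3' single-cell RNA-seq of sorted testicular germ cells, 1 library per genotype. The submitters' processing notes name the mm10 build, Cell Ranger 3.1.0 and Seurat 3.2.0, with no role for each. The deposited matrices hold whole-number UMI counts per gene and barcode with no normalization, and the lowest barcode has 500 UMIs. Per the file headers, the authors' cell table gives each annotated cell's total count, the percent of its UMIs that are mitochondrial, a cluster, a stage and a pseudotime score, an order with no unit. The fewest genes in an annotated cell were 1000, and mitochondrial UMIs reached 10% at most. The 17 barcodes that both libraries hold were kept, and no doublet caller was run.

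UMIs were summed per gene, library and stage or cluster and divided by the sum over all genes to give CPM. For log2 ratios, 0.5 counts were added to both sums; this draws low genes towards 0. Intervals are exact Poisson for a sum, exact conditional binomial for a ratio and exact Clopper-Pearson for a share; they cover counting error only and leave out mice and library preparation. Calls need 2-fold and 10 CPM in the higher group, and the same rule over all genes gives the background. Genes of the other lists were named by the 4 widest ratios of at least 10 CPM in each comparison. The members and lists were chosen with earlier results of these data known. The calls were checked on simulated data. Alternatives were median-of-ratios scaling, thinning to 3000 UMIs, leaving out cells above 5% mitochondrial UMIs, cells under 5000 UMIs, the deepest 5% of cells or shared barcodes, equal weight for clusters, no minimum level, 2 added counts and, chosen after seeing the data, UMIs per cell. Scripts used Python 3.11.15 with NumPy 2.4.6, pandas 2.3.3 and SciPy 1.17.1; 3' ends were compared with BLAST 2.17.0.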

Additional observations from a re-analysis of the deposited data

Results flagged for a closer look

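In 3 cases the change of a member over pachytene ran in opposite directions in the 2 libraries; with 1 library each, none of these differences was tested. Fzr1 in late over early pachytene had a log2 ratio of 0.45 (0.28 to 0.63) in the library labelled Zfp541-/- and -0.32 (-0.68 to 0.09) in WT. In mid over early pachytene it was 0.092 (-0.08 to 0.27) in the library labelled Zfp541-/- and -0.60 (-0.96 to -0.19) in WT. The WT early pachytene level of Fzr1 rests on 66 UMIs. Elongating spermatid markers summed to 764 CPM in WT early pachytene cells and 0.699 CPM in those of the library labelled Zfp541-/-. Fzr1 was at 159 CPM in WT first-stage round spermatids. The part of free RNA in the WT early pachytene level was not tested. Espl1 in late over mid pachytene was -0.25 (-0.38 to -0.12) in the library labelled Zfp541-/- and 0.10 (-0.22 to 0.41) in WT. In all 3 cases 1 of the 2 intervals holds 0.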

How the results depend on the processing

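No paired analysis was possible because each group has 1 library, and for the same reason no replicate could be left out. The alternatives were applied to 20 results, of which 13 were added to the list after their values were seen. Between the libraries, the counts of members stayed within 1.5 times their values and the median log2 ratios within the widest counting half-interval of the members, under all 9 alternatives other than UMIs per cell. Pttg1 and Ube2c stayed at least 2-fold lower there, with Pttg1 between -1.95 and -1.54 and Ube2c between -2.34 and -1.93 in late pachytene, while the log2 ratio of Espl1 ranged between -0.42 and 0.20, so its direction is not settled.

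The WT steps moved more. Median-of-ratios scaling turned the median of the first division over late pachytene to 1.31, having no minimum level turned it to 0.43, and UMIs per cell turned it to 1.40; the members called higher over that step stayed within 1.5 times 3 in each. Members lower in the third round spermatid stage numbered 0 with median-of-ratios scaling, 2 without the 5% of cells with the most UMIs and 2 per cell, in place of 4. Members lower in the second stage numbered 1 without those cells and 4 per cell, in place of 2. Members higher in diplotene than late pachytene numbered 0 after thinning, without those cells and with clusters at equal weight, and 2 per cell, in place of 1. With no minimum level, Fbxo5 made 1 member lower over each step to diplotene and to the first division. Members lower in first-stage round spermatids than in the first division numbered 3 under median-of-ratios scaling, with Cdc20 added, and 3 after thinning, with Pttg1 added. Thinning also moved the highest WT stage of Fbxo43 to mid pachytene, so that 3 members in place of 4 were highest in the first division, and the highest stages of Cdc20 and Fzr1 moved as stated with their values.

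In the library labelled Zfp541-/-, members higher in preleptotene than in spermatogonia numbered 0 after thinning, without cells above 5% mitochondrial UMIs, without cells under 5000 UMIs and per cell, and 2 with no minimum level, in place of 1. Members higher in leptotene than preleptotene numbered 2 without cells under 5000 UMIs and 2 per cell, in place of 4, and those lower numbered 2 per cell, in place of 1. The cause of these moves was not tested.

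UMIs per cell, an alternative chosen after seeing the data, turned the median of the members between the libraries to 0.98 in mid and 0.97 in late pachytene and left 1 member lower in first-stage round spermatids. On that scale 3 members were at least 2-fold higher in each stage of the library labelled Zfp541-/-, namely Cdc20, Espl1 and Fbxo43 in mid and Fzr1, Espl1 and Fbxo43 in late pachytene, and Pttg1 and Ube2c were lower by less than 2-fold. The share of all genes called on that scale was not computed. Mean UMIs per cell were higher in that library by log2 1.28 in mid and 1.32 in late pachytene, more than the members' medians. Stages with few cells limit the depth: 230 WT cells in early pachytene, 122 WT cells before it and 111 in elongated spermatids.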
